A study of Homo sapiens with 66 samples.

Results

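Ionotropic receptors are the ligand-gated ion channels of synapses, and 34 genes that encode their subunits were followed here through the making of human motor neurons from pluripotent stem cells. The genes were chosen by name, from a list of AMPA, kainate, NMDA, GABA-A, glycine and nicotinic acetylcholine receptor subunits. Earlier results of these data were known when they were chosen. All 34 were matched by Ensembl identifier to a row of the deposited count tables, out of 60603 gene identifiers in all. The list holds 4 AMPA, 5 kainate, 6 NMDA, 8 GABA-A, 4 glycine and 7 nicotinic subunits. It does not hold every subunit of each family, so shares of a family below are shares of the listed subunits.

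AMPA, kainate and NMDA receptors are tetramers opened by glutamate, the main excitatory transmitter, whereas GABA-A, glycine and nicotinic receptors are pentamers of a different superfamily opened by GABA, glycine and acetylcholine. The subunits that a neuron expresses set the kinetics, the ion selectivity and the drug sensitivity of its receptors, and neurons are known to exchange subunits as they mature. Motor neurons of the spinal cord receive glutamatergic drive and glycinergic and GABAergic inhibition, and they release acetylcholine onto muscle and onto Renshaw cells.

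The libraries were made from H9, an established human embryonic stem cell line, unmodified in every group. Bulk RNA-seq of 66 libraries covered 22 groups of 3 libraries each. hESC were the undifferentiated cells in mTeSR medium. hNMP-D1 to hNMP-D4 were sampled on 4 consecutive days of conversion to human neuromesodermal progenitors, the axial progenitors of spinal cord and trunk mesoderm, first in mTeSR and then in N2B27 medium with FGF2, CHIR99021 (an activator of WNT signalling), SB431542 and Dorsomorphin (inhibitors of TGF-beta and BMP receptors). NeuDet-D1 to NeuDet-D6 were 6 days of neural determination with FGF2, FGF8, CHIR99021, SB431542, Dorsomorphin and Compound E, a gamma-secretase inhibitor that blocks Notch signalling. hSCNPC-P5, P10, P20, P30 and P40 were the resulting spinal cord neural progenitor cells, kept in SB431542, CHIR99021 and Purmorphamine (an activator of Hedgehog signalling) for 5, 10, 20, 30 and 40 passages. hMN-D6, D12, D18, D24, D30 and D42 were cultures differentiated to motor neurons for 6, 12, 18, 24, 30 and 42 days with Purmorphamine, Compound E, BDNF, GDNF and NT-3. No library was labelled as day 0 of that differentiation and the labels do not name the passage it began from, so hSCNPC-P10 was taken as its start. Nothing in the labels tells if a group's 3 libraries came from separate cultures, and each p-value therefore measures the spread between these libraries alone, which may be technical.

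Between 14142238 and 40204753 counts were assigned to genes per library, with a median of 20676228. No pair of libraries agreed within counting noise. Summed CPM (counts scaled to a common library size) of 5 pluripotency markers fell along the course, with 1880 to 1900 in hESC, 747 to 795 in hNMP-D4, 109 to 121 in NeuDet-D6, 41.1 to 43.8 in hSCNPC-P5 and 2.28 to 2.65 in hMN-D6. Summed CPM of 8 neuron markers were 49.9 to 55.6 in hESC, 496 to 523 in hSCNPC-P5, 839 to 875 in hSCNPC-P10, 487 to 509 in hSCNPC-P40, 4350 to 4510 in hMN-D6, 5110 to 5230 in hMN-D18 and 3900 to 4100 in hMN-D42. The 7 motor neuron markers summed to 4.54 to 5.79 CPM in hSCNPC-P10, to 63.1 to 66.3 CPM in hMN-D6, where all 7 were detected, and to 102 to 105 CPM in hMN-D42. The hMN cultures thus carried the defining markers of their label, though only 6 of the 7 were detected in hMN-D18 and hMN-D24. Markers of progenitors, glia and other neurons were present beside them and are given where they touch a result.

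Receptor subunit RNA was present from the first stage and was highest in the hMN cultures. The 34 genes together took 277.7 to 286.7 CPM before TMM scaling in hESC, 105.0 to 128.9 in hNMP-D4, 161.1 to 174.4 in NeuDet-D6, 307.1 to 311.9 in hSCNPC-P10, 97.2 to 100.7 in hSCNPC-P40, 959.2 to 1048.6 in hMN-D6, 2189.7 to 2276.8 in hMN-D24 and 1620.8 to 1660.2 in hMN-D42. Of the 34, 21 were detected in hESC (at least 1 CPM in all 3 libraries), 13 in NeuDet-D1 and NeuDet-D2, 25 in hSCNPC-P10, 19 in hSCNPC-P40, 29 in hMN-D6 and 31 at each later hMN day. The highest group mean lay in an hMN group for 27 subunits, and for 13 of them every one of the 18 hMN libraries lay above every one of the other 48 libraries. The 13 were GRIA1, GRIA2, GRIA4, GRIK1, GRIK2, GRIN1, GRIN2A, GRIN2B, GABRA3, GLRA1, GLRA2, CHRNA4 and CHRNB2. GLRA1 passed narrowly, at 1.015 CPM in its lowest hMN library and 0.9502 CPM in the highest other library. The same counts were not made over all genes, so whether 27 and 13 are unusual was not tested. The 7 that peaked elsewhere were CHRNB1, the muscle-type beta subunit, in hESC, GABRA5, GABRB2 and GABRG1 in hNMP, GABRA4 and CHRNA3 in NeuDet, and CHRNA7 in hSCNPC. In bulk libraries such as these, more cells of a type and more RNA per cell cannot be told apart.

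**Figure D1:**
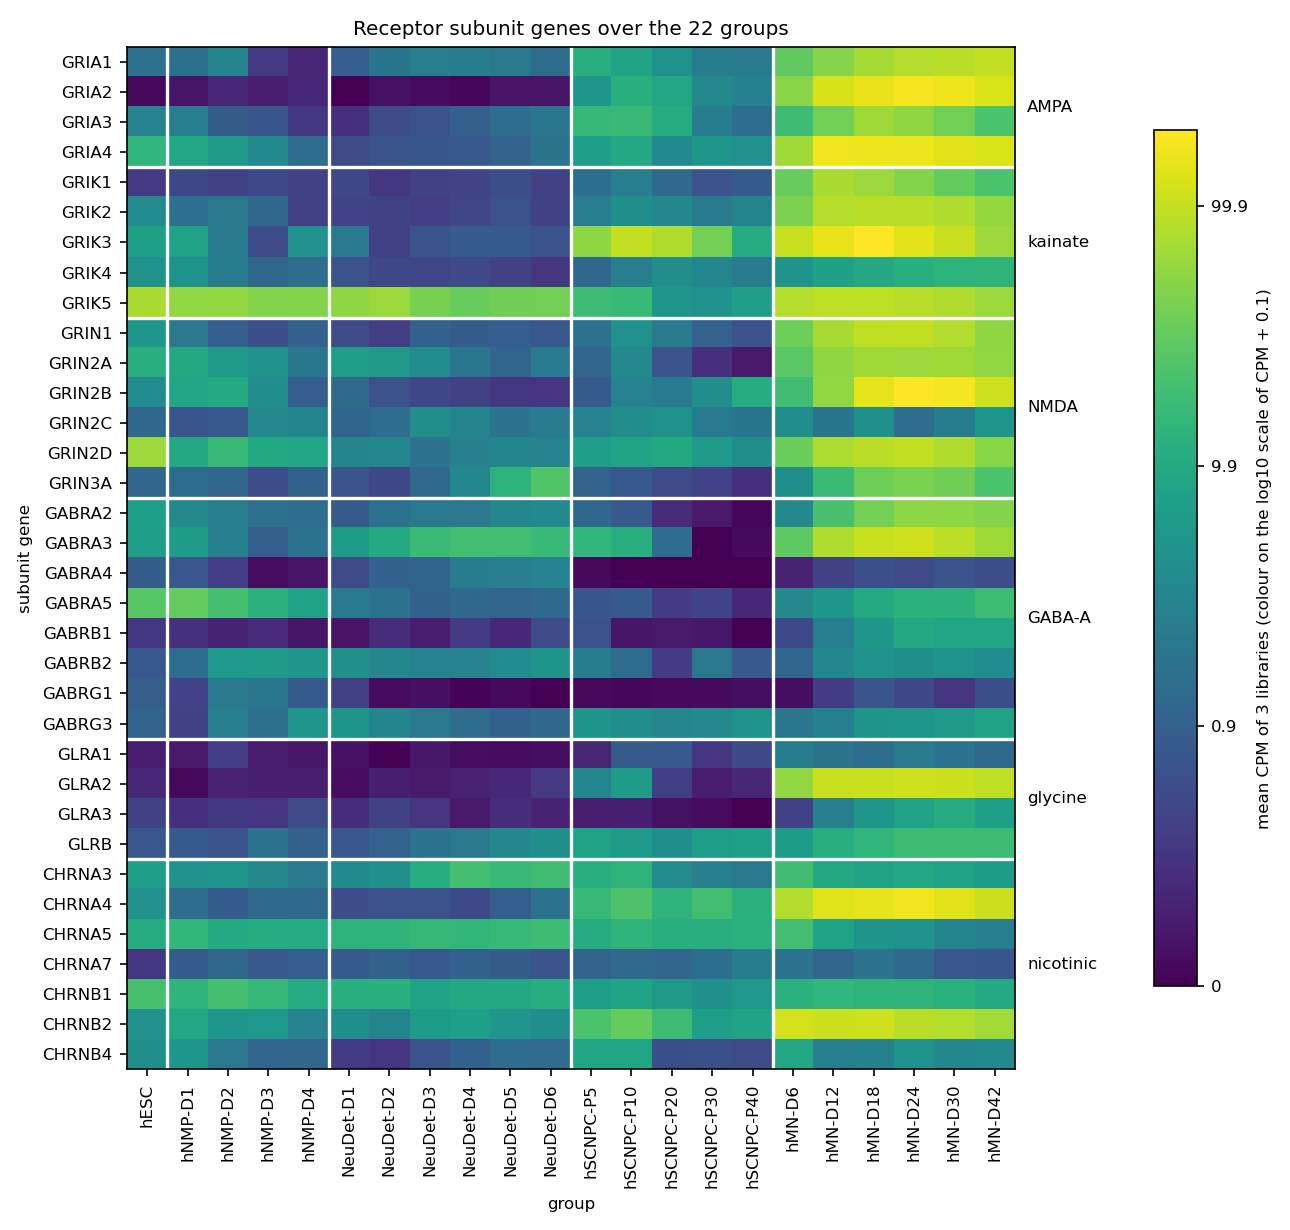
Mean CPM of 3 libraries for each of the 34 subunits (rows, by family) in each of the 22 groups (columns, in the order of the protocol), shown by colour on a log10 scale of CPM + 0.1. An hMN column is the highest for 27 rows, while GABRA5 and CHRNB1 are brighter in hESC and early hNMP columns than elsewhere.

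In the pluripotent cells 1 subunit led most families. Levels were compared between genes only per length, as TPM, the transcript measure scaled to the same total in every library, over the exon length of each gene. GRIN2D, a glutamate-binding NMDA subunit of early development, made 88.7% ± 0.759 of the listed NMDA TPM in hESC (SD, n = 3, as for all shares). GRIK5, a high-affinity kainate partner subunit, made 89.5% ± 0.848 of the kainate TPM, and GABRA5, a GABA-A alpha subunit of extrasynaptic receptors, made 75.7% ± 1.01 of the GABA-A TPM. GRIA4, an AMPA subunit, made 67.9% ± 4.74 of an AMPA sum of only 6.70 ± 0.543 TPM. GRIA2, whose edited form makes AMPA channels nearly impermeable to calcium, had 1 count in the 3 hESC libraries together.

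Most subunits fell during the conversion to neuromesodermal progenitors. In hNMP-D4 against hESC, 21 of 33 tested subunits were lower (63.6%, where 27.6% of all 21597 genes tested were lower) and 3 were higher (9.09%, where 26.7% of all genes were higher). The median log2 fold change of the subunits was -1.65, beside 0.00586 over all genes tested. AMPA subunits had 3 lower of 4, kainate 4 of 5, NMDA 4 of 6, GABA-A 5 of 8 and nicotinic 5 of 7, and none of the 3 tested glycine subunits was called. The lower call of GABRB1, a GABA-A beta subunit under 1 CPM in both groups, was lost in 5 of 11 alternatives, among them without hNMP-D4 library 1 (edgeR adjusted p = 0.0564) or 3 (adjusted p = 0.141) and without hESC library 2 (adjusted p = 0.0652) or 3 (adjusted p = 0.0536).

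GRIA1, an AMPA subunit, had 0.157, 0.212 and 0 CPM in hNMP-D4, against 1.54, 1.64 and 1.62 CPM in hESC (log2 fold change -3.75 ± 0.409 SE, edgeR adjusted p = 2.16e-11). GRIA4 had 1.57, 1.7 and 0.798 CPM in hNMP-D4, against 13.2, 13.5 and 16.8 CPM in hESC (log2 fold change -3.44 ± 0.216 SE, edgeR adjusted p = 7.35e-20). The hNMP-D4 libraries lay below every hESC library for both genes. GRIA3 (log2 fold change -3.50, edgeR adjusted p = 2.15e-16) and the kainate channel subunit GRIK2 (log2 fold change -3.35, edgeR adjusted p = 5.87e-13) fell likewise, with libraries apart. GRIN2D, the leading NMDA subunit of hESC, had 6.4, 10.1 and 9.07 CPM in hNMP-D4, against 64.1, 65.1 and 64.8 CPM in hESC (log2 fold change -2.91 ± 0.128 SE, edgeR adjusted p = 3.04e-26). Most of that difference was already present in hNMP-D1, at 9.61, 9.9 and 9.02 CPM. GRIN2A, a glutamate-binding NMDA subunit, also fell (log2 fold change -2.68, edgeR adjusted p = 6.99e-18).

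The 3 subunits that rose were GABRB2, GABRG3 and GRIN2C. GABRB2, a GABA-A beta subunit, had 7.03, 5.51 and 3.86 CPM in hNMP-D4, against 0.44, 1.17 and 0.5 CPM in hESC (log2 fold change 2.92 ± 0.249 SE, edgeR adjusted p = 6.94e-15). GABRG3, a gamma subunit, rose as well (log2 fold change 2.32, edgeR adjusted p = 1.88e-13), as did the NMDA subunit GRIN2C (log2 fold change 1.31, edgeR adjusted p = 0.000107). All 3 had libraries apart. GRIK3, a kainate channel subunit, was called lower, but its hNMP-D4 libraries at 8.82, 3.6 and 1.26 CPM straddled those of hESC at 6.93, 7.79 and 7.94 CPM, and the call was lost without hNMP-D4 library 2 (edgeR adjusted p = 0.0962), without hNMP-D4 library 3 (adjusted p = 0.185) and without hESC library 2 (adjusted p = 0.0587) or 3 (adjusted p = 0.064).

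During neural determination the subunits moved in both directions, at shares close to those of all genes. In NeuDet-D6 against hNMP-D4, 11 of 33 were higher (33.3%, beside 30.3% of all genes) and 8 were lower (24.2%, beside 34.8%), with a median log2 fold change of 0.0264 beside -0.0454 over all genes. A few subunits changed strongly within this mixed picture.

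GRIN3A, a glycine-binding NMDA subunit that lowers calcium permeability, had 21.2, 22.6 and 30.2 CPM in NeuDet-D6, against 1.15, 0.9 and 0.798 CPM in hNMP-D4 (log2 fold change 4.65 ± 0.199 SE, edgeR adjusted p = 1.86e-27). It was still at 1.29, 1.35 and 1.22 CPM in NeuDet-D3 and at 12.3, 12.2 and 15.9 CPM in NeuDet-D5, and it made 76.3% ± 0.95 of the listed NMDA TPM in NeuDet-D6. GABRA3, an alpha subunit common in immature neurons, had 18.8, 16.1 and 14.2 CPM in NeuDet-D6, against 2.05, 1.8 and 0.966 CPM in hNMP-D4 (log2 fold change 3.33 ± 0.163 SE, edgeR adjusted p = 2.96e-24). Its rise came earlier than that of GRIN3A, with 19.8, 17.9 and 14.6 CPM in NeuDet-D3. GABRA4 had 2.87, 2.58 and 2.85 CPM in NeuDet-D6, against 3 counts over the hNMP-D4 libraries together, a ratio of 56.7 with an exact 95% counting interval of 19.2 to 277. CHRNA3, the alpha subunit of ganglionic nicotinic receptors, had 21.1, 19.6 and 16.7 CPM in NeuDet-D6, against 1.99, 2.65 and 1.76 CPM in hNMP-D4 (log2 fold change 3.12 ± 0.149 SE, edgeR adjusted p = 2.11e-25). The NeuDet-D6 libraries of all 4 genes lay above those of hNMP-D4, and the libraries were apart too for the AMPA subunits GRIA1 (log2 fold change 3.42, edgeR adjusted p = 9.8e-11) and GRIA3 (log2 fold change 2.84, edgeR adjusted p = 2.38e-13).

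The alpha subunit that led in hESC moved the other way. GABRA5 had 1.31, 1.15 and 1.21 CPM in NeuDet-D6, against 7.82, 9.38 and 6.68 CPM in hNMP-D4 (log2 fold change -2.75 ± 0.165 SE, edgeR adjusted p = 4.24e-21), and GABRA3 made 74.6% ± 3.13 of the listed GABA-A TPM in NeuDet-D6. GRIK3 (log2 fold change -2.92, edgeR adjusted p = 2.46e-08), GABRG3 (log2 fold change -2.12, edgeR adjusted p = 3.2e-14) and GRIN2D (log2 fold change -1.72, edgeR adjusted p = 3.54e-15) fell with libraries apart. GRIK5 fell slightly (log2 fold change -0.36, edgeR adjusted p = 0.000203) and its libraries overlapped. GABRG1, a gamma subunit, was at 0 counts in the 3 NeuDet-D6 libraries, at least 27.5-fold lower than in hNMP-D4 at a floor of 3 counts over the group. GABA and glycine neuron markers summed to 68.8 to 74.2 CPM in NeuDet-D6 and to 29.7 to 34.5 CPM in hNMP-D4, with 2 of 4 higher and 1 lower, and their part in these changes was not tested.

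**Figure D2:**
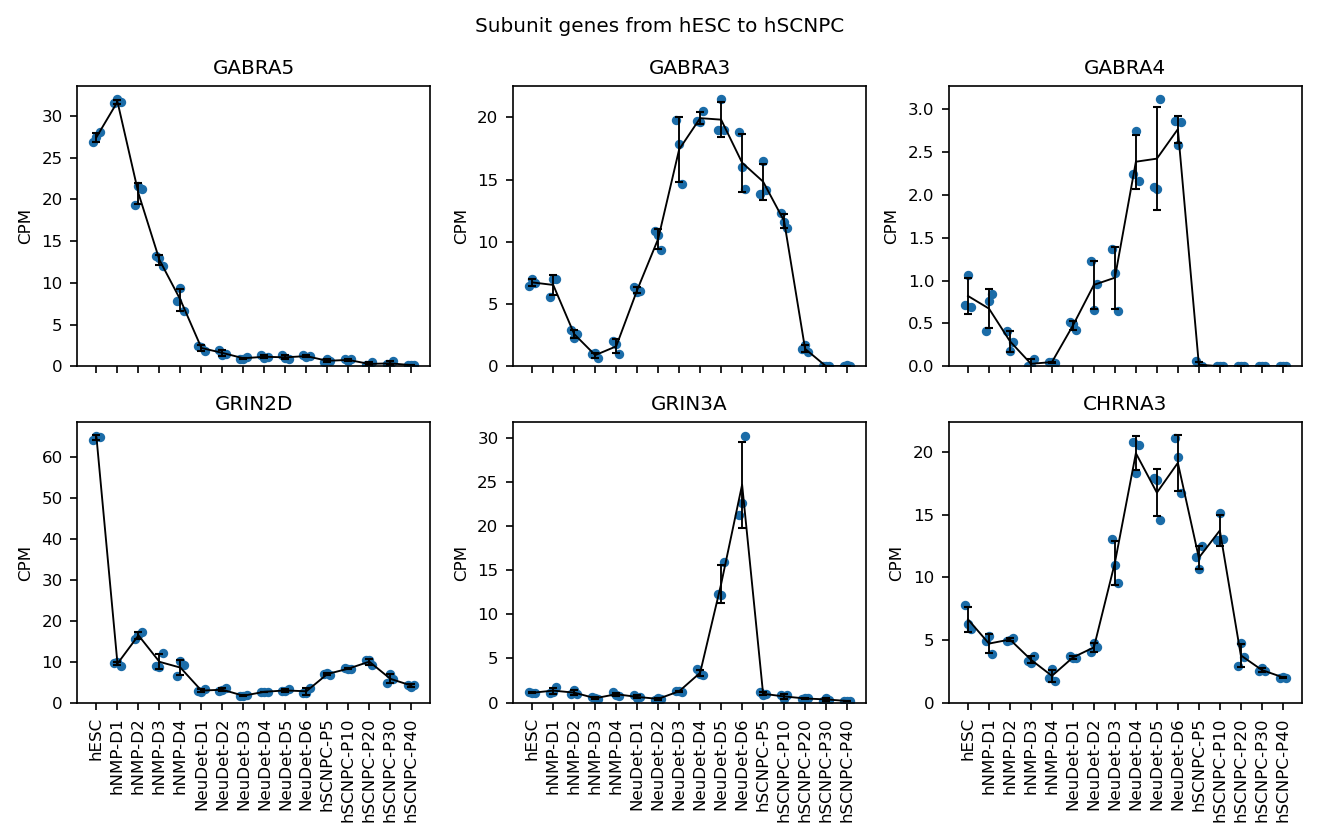
CPM (linear axes) of 6 subunits in the 16 groups from hESC to hSCNPC-P40, with each library as a point and the group mean with SD as a black line with bars. GABRA3 and CHRNA3 climb from NeuDet-D2 to NeuDet-D4, GRIN3A climbs from NeuDet-D4 to NeuDet-D6 and is low again in hSCNPC-P5, and GABRA5 and GRIN2D are highest in hESC or hNMP-D1.

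Established spinal cord progenitors had more RNA of the AMPA and kainate channel subunits than NeuDet-D6. In hSCNPC-P5 against NeuDet-D6, 17 of 33 subunits were higher (51.5%, beside 28.8% of all genes) and 10 were lower (30.3%, beside 30.6%), with a median log2 fold change of 1.38 beside -0.0245 over all genes. The higher calls covered 4 of 4 AMPA, 4 of 5 kainate and 3 of 6 NMDA subunits, but 1 of 8 GABA-A subunits. Among these AMPA and kainate subunits, GRIA4, GRIK2 and GRIK4 still had lower means than in hESC. GRIA1, GRIA2, GRIA3, GRIK1 and GRIK3 had higher means than in hESC.

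GRIA2 had 5.2, 5.06 and 5.48 CPM in hSCNPC-P5, against 0, 0.0261 and 0.117 CPM in NeuDet-D6 (log2 fold change 6.85 ± 0.456 SE, edgeR adjusted p = 1.49e-18). It had stayed at or below 0.252 CPM in every earlier library, so hSCNPC-P5 was the first stage above that level. GRIK3 had 47.6, 57.3 and 55.1 CPM in hSCNPC-P5, against 0.696, 0.574 and 0.507 CPM in NeuDet-D6 (log2 fold change 6.47 ± 0.297 SE, edgeR adjusted p = 6.9e-20). It replaced GRIK5 as the leading listed kainate subunit, with 58.1% ± 3.67 of the kainate TPM in hSCNPC-P5, where GRIK5 had made 97.8% ± 0.730 in NeuDet-D6. CHRNA4, the alpha subunit of the main nicotinic receptor of the brain, had 16.6, 17.8 and 15.4 CPM in hSCNPC-P5, against 1.53, 1.44 and 1.91 CPM in NeuDet-D6 (log2 fold change 3.38 ± 0.174 SE, edgeR adjusted p = 8.78e-24). GLRA2, the fetal glycine receptor alpha subunit, rose to 2.31, 3.57 and 3.58 CPM (log2 fold change 3.64, edgeR adjusted p = 1.38e-13), and GRIA1 (log2 fold change 3.18, edgeR adjusted p = 5.82e-20) and GRIA3 (log2 fold change 3.08, edgeR adjusted p = 1.38e-23) rose further.

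GRIN3A and GABRA4, both raised in NeuDet-D6, fell again. GRIN3A had 1.18, 0.863 and 0.949 CPM in hSCNPC-P5, against 21.2, 22.6 and 30.2 CPM in NeuDet-D6 (log2 fold change -4.61 ± 0.201 SE, edgeR adjusted p = 5.78e-27). GABRA4 had 1 count over the 3 hSCNPC-P5 libraries, against 275 counts in NeuDet-D6, and was 147 times higher in NeuDet-D6 with an exact 95% counting interval of 26.1 to 5820. Smaller falls were found for GABRA2 (log2 fold change -1.53, edgeR adjusted p = 7.51e-07), GABRB2 (log2 fold change -1.09, edgeR adjusted p = 5.62e-06), GRIK5 (log2 fold change -1.07, edgeR adjusted p = 4.12e-15) and GRIN2A (log2 fold change -0.97, edgeR adjusted p = 0.000302), each with libraries apart. Neural progenitor markers summed to 3940 to 4040 CPM in hSCNPC-P5 and to 936 to 996 CPM in NeuDet-D6, with 7 of 7 higher. All 8 neuron markers were higher too (median log2 fold change 2.53), with sums of 496 to 523 CPM in hSCNPC-P5 and 59.1 to 63.4 CPM in NeuDet-D6. The part of these markers in the changes was not tested.

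Most subunits were lower after long-term passaging. In hSCNPC-P40 against hSCNPC-P5, 21 of 33 were lower (63.6%, beside 24.1% of all genes) and 3 were higher (9.09%, beside 22.8%), with a median log2 fold change of -1.38 beside -0.0108 over all genes. With the subunits whose group was at 0 set to their bound, the median was -1.16. All 4 AMPA subunits, 5 of 6 NMDA and 5 of 8 GABA-A subunits were lower. The GRIA4 call, at a log2 fold change of -0.56, was lost without hSCNPC-P40 library 1 (edgeR adjusted p = 0.052). The GRIN2C call, at an edgeR adjusted p of 0.0498, was lost in 4 of 13 alternatives, among them without hSCNPC-P5 library 2 (adjusted p = 0.214) and without hSCNPC-P40 library 2 (adjusted p = 0.0527) or 3 (adjusted p = 0.244). The call of CHRNB1, the muscle-type beta subunit, was lost in 4 of 13, among them without hSCNPC-P5 library 1 (edgeR adjusted p = 0.102) and without hSCNPC-P40 library 1 (adjusted p = 0.0702) or 3 (adjusted p = 0.111).

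GABRA3, which led the GABA-A subunits up to passage 20, had 0, 0.0672 and 0 CPM in hSCNPC-P40, against 13.8, 16.5 and 14.2 CPM in hSCNPC-P5. That is 1 count against 790, and hSCNPC-P5 was 832 times higher with an exact 95% counting interval of 149 to 32900. In between, it had 12.3, 11.6 and 11.1 CPM in hSCNPC-P10 and 1.35, 1.71 and 1.16 CPM in hSCNPC-P20, and it was at 0 counts in hSCNPC-P30. CHRNB4, the beta partner of CHRNA3, had 0.661, 0.403 and 0.39 CPM in hSCNPC-P40, against 8.93, 9.26 and 7.85 CPM in hSCNPC-P5 (log2 fold change -4.14 ± 0.251 SE, edgeR adjusted p = 1.41e-20). CHRNA3 itself fell (log2 fold change -2.51, edgeR adjusted p = 1.11e-19), as did GLRA2 (log2 fold change -4.59, edgeR adjusted p = 2.87e-13), GRIA3 (log2 fold change -3.46, edgeR adjusted p = 1.49e-23) and GRIA1 (log2 fold change -2.48, edgeR adjusted p = 2.09e-15), all with libraries apart. GABRB1, a beta subunit, was at 0 counts in hSCNPC-P40, at least 10.9-fold lower than in hSCNPC-P5. Most of the drop in GABRA3, CHRNA3, CHRNB4 and GLRA2 lay between passages 10 and 20. CHRNB4, for example, had 0.596, 0.587 and 0.365 CPM in hSCNPC-P20, against 8.55, 7.92 and 8.81 CPM in hSCNPC-P10.

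GRIN2B, the glutamate-binding NMDA subunit that dominates before birth, was the main exception. It had 9.26, 11.4 and 11.7 CPM in hSCNPC-P40, against 0.769, 0.805 and 0.685 CPM in hSCNPC-P5 (log2 fold change 3.84 ± 0.23 SE, edgeR adjusted p = 9.85e-21). The libraries were apart, and the level in hSCNPC-P30 lay between, at 4.38, 4.09 and 3.91 CPM. GRIK4, a high-affinity kainate partner, was called higher (log2 fold change 0.91, edgeR adjusted p = 0.0112), a call lost without hSCNPC-P5 library 1 (edgeR adjusted p = 0.0618) or 3 (adjusted p = 0.0711) and without hSCNPC-P40 library 1 (adjusted p = 0.0635). GLRA1, the adult glycine receptor alpha subunit, was called higher at under 1 CPM in every library, with libraries that overlapped and a call lost in 6 of 11 alternatives (adjusted p up to 0.148). GABRG3, CHRNA5 and GLRB, the glycine receptor beta subunit that binds gephyrin, were not called, with 12, 12.4 and 12.8 CPM of CHRNA5 in hSCNPC-P40, against 10.4, 11.5 and 10.3 CPM in hSCNPC-P5. GABA and glycine neuron markers summed to 1.95 to 2.92 CPM in hSCNPC-P40 and to 25.7 to 30.7 CPM in hSCNPC-P5, and all 4 were lower. Of 8 neuron markers 5 were lower and 2 higher (median log2 fold change -0.918), while their sum was 487 to 509 CPM in hSCNPC-P40 and 496 to 523 CPM in hSCNPC-P5. All 7 neural progenitor markers were lower (median log2 fold change -0.837), with sums of 2540 to 2690 CPM in hSCNPC-P40 and 3940 to 4040 CPM in hSCNPC-P5. The part of these markers in the changes was not tested.

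Most subunits rose in the first step of motor neuron differentiation. In hMN-D6 against hSCNPC-P10, 25 of 34 subunits were higher (73.5%, where 38.5% of all 21175 genes tested were higher) and 1 was lower (2.94%, where 36.7% of all genes were lower). The median log2 fold change of the subunits was 1.83, beside 0.079 over all genes, and 1.79 with the subunit at 0 in hSCNPC-P10 set to its bound. The higher calls covered 3 of 4 AMPA, 4 of 5 kainate, 5 of 6 NMDA, 5 of 8 GABA-A, 3 of 4 glycine and 5 of 7 nicotinic subunits. The hMN libraries and the progenitor libraries were deposited in separate tables, so a difference between the tables and one between the cells cannot be told apart. The start at hSCNPC-P10 was assumed, and most subunits differed between hSCNPC-P5 and hSCNPC-P40, so the calls of this step depend on that choice.

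GRIK1, a kainate channel subunit, had 33.5, 34.9 and 32.5 CPM in hMN-D6, against 2.59, 2.26 and 2.54 CPM in hSCNPC-P10 (log2 fold change 3.72 ± 0.0999 SE, edgeR adjusted p = 3.86e-35). GRIK2 had 43, 43.4 and 44.2 CPM in hMN-D6, against 3.63, 4.73 and 4.25 CPM in hSCNPC-P10 (log2 fold change 3.36 ± 0.0755 SE, edgeR adjusted p = 1.96e-38). GRIK3 did not pass, with 93.1, 104 and 114 CPM in hMN-D6, against 99.5, 90.5 and 102 CPM in hSCNPC-P10. The kainate subunits thus differed in that GRIK3 was abundant in hSCNPC-P10, at 71.5% ± 0.901 of the kainate TPM, and GRIK1 and GRIK2 were not. GRIK3 varied with passage, at a mean of 53.34 CPM in hSCNPC-P5 and 10.81 CPM in hSCNPC-P40. Its lack of a call therefore rests on the assumed start.

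GLRA2 had 57.6, 56.6 and 58.5 CPM in hMN-D6, against 6, 6.59 and 6.17 CPM in hSCNPC-P10 (log2 fold change 3.17 ± 0.0663 SE, edgeR adjusted p = 9.78e-40). It made 83.6% ± 1.06 of the listed glycine receptor TPM in hMN-D6, while its partner GLRB did not pass, with 6.91, 6.12 and 6.66 CPM in hMN-D6, against 6.18, 5.53 and 5.44 CPM in hSCNPC-P10. GRIN1, the glycine-binding subunit that every NMDA receptor needs, had 35.7, 36.5 and 38.1 CPM in hMN-D6, against 4.62, 4.19 and 4.61 CPM in hSCNPC-P10 (log2 fold change 2.99 ± 0.0809 SE, edgeR adjusted p = 5.26e-35). The glutamate-binding partners GRIN2A (log2 fold change 2.96, edgeR adjusted p = 1.29e-31) and GRIN2B (log2 fold change 2.77, edgeR adjusted p = 9.84e-14) rose with it, all with libraries apart. GABRG3 alone was lower, with 1.82, 2.07 and 1.64 CPM in hMN-D6, against 4.36, 3.06 and 4.71 CPM in hSCNPC-P10 (log2 fold change -1.18 ± 0.169 SE, edgeR adjusted p = 1.93e-08). GABRA4 had at most 0.193 CPM in an hMN-D6 library and no count in hSCNPC-P10, at least 2.15-fold higher, and its call was lost without hMN-D6 library 3 (edgeR adjusted p = 0.0742) or hSCNPC-P10 library 1 (adjusted p = 0.0566).

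**Figure D3:**
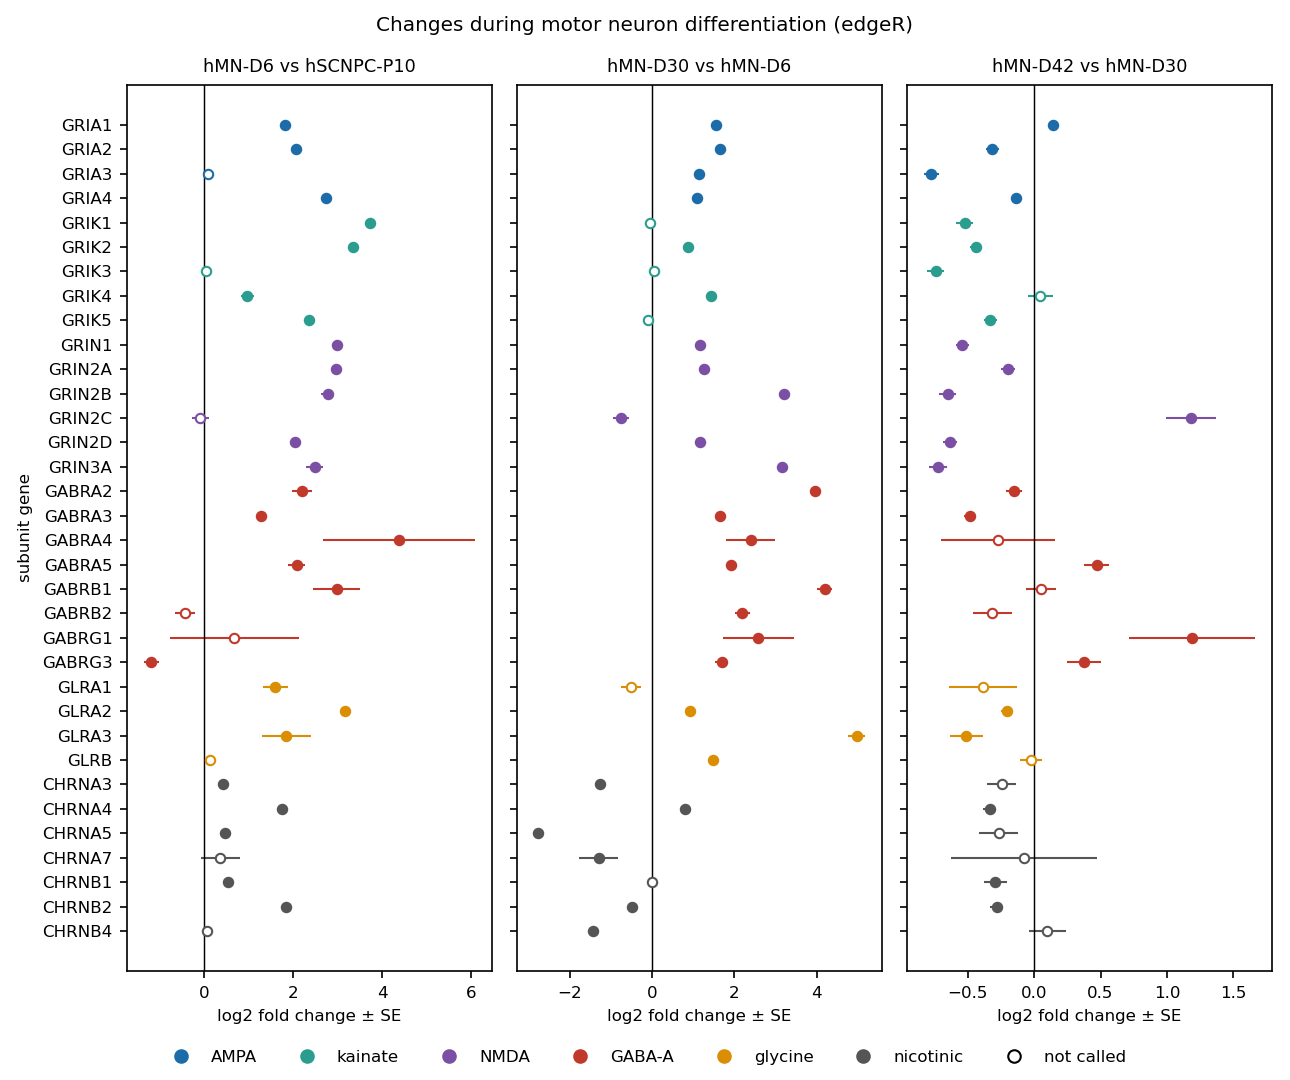
Fitted log2 fold change ± SE of each of the 34 subunits (rows, coloured by family) in hMN-D6 against hSCNPC-P10, hMN-D30 against hMN-D6 and hMN-D42 against hMN-D30 (panels), with open points for subunits not called. Most points lie right of 0 in the first 2 panels, with 25 and 23 called higher, and left of 0 in the last, with 19 called lower.

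Markers of other cells moved in the same comparison. Neural progenitor markers summed to 1420 to 1480 CPM in hMN-D6 and to 3600 to 3910 CPM in hSCNPC-P10, with 5 of 7 lower and 2 higher. Astrocyte markers summed to 12.8 to 13.8 CPM in hMN-D6 and to 146 to 152 CPM in hSCNPC-P10, but only 2 of 6 were lower and 1 was higher. The astrocyte sum was 880 to 964 CPM in hESC, so it does not follow astrocytes alone. Markers of glutamate neurons summed to 1.88 to 2.1 CPM in hMN-D6. Those of GABA or glycine neurons summed to 34.3 to 38.5 CPM in hMN-D6 and 10 to 10.4 CPM in hSCNPC-P10, but 2 of the 4 were higher and 2 lower. Among 6 skeletal muscle markers the sum was 6.47 to 8.39 CPM in hMN-D6 and DES was at 0. The part of these cells in the subunit changes was not tested.

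REST, the repressor that binds the RE1 element of many neuronal genes outside neurons, fell over the same step. It had 4.76, 5.91 and 5.02 CPM in hMN-D6, against 46.2, 44.2 and 40.05 CPM in hSCNPC-P10 (log2 fold change -3.09 ± 0.0966 SE, edgeR adjusted p = 2.63e-32). Of 9 listed REST corepressor genes, 8 were tested, 6 were lower and none was higher (36.7% of all genes were lower and 38.5% higher). Promoter windows of 300 bases, 250 before to 50 after each annotated start, were searched on both strands for the left part of the RE1 element (CAGCACC), its right part (GGACAGC) and both parts in the canonical arrangement (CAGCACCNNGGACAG). RefSeq windows of GRCh38.p14 were at hand for 26 of the 34 subunits, 40 windows in all. CAGCACC was found in 3 of the 40 and in 7.75% of all 35116 windows, and GGACAGC in 5 of the 40 (CHRNB1, GABRG3, GLRA2, GLRB and GRIA2) and in 6.03% of all windows. Both parts together were found in the GRIA2 window only, and in 0.0513% of all windows. All 3 sites with CAGCACC are shown, as the full set of matches to the left part, read 5′ to 3′ on the strand that carries the letters, with the matched letters in capitals.
GRIA2, chr4:157220385-157220412, minus strand, opposite to the gene, 220 bases before the start, within the GRIA2 gene span but in no exon: gcctttCAGCACCgaGGACAGcgcctcg
GRIN2B, chr12:13982195-13982222, plus strand, opposite to the gene, 74 bases before the start, in no annotated feature: cagcggggaaCAGCACCgacggagagcg
CHRNA3, chr15:78621144-78621171, minus strand, the strand of the gene, 162 bases before the start, in an annotated exon and UTR of CHRNA3: gtggtggtgaCAGCACCtgctcagatct
The match is a description of the letters in these windows. GRIA2 rose in hMN-D6 (log2 fold change 2.07, edgeR adjusted p = 9.52e-29), with 49.2, 50.2 and 53.2 CPM in hMN-D6, against 10.1, 14.4 and 11.7 CPM in hSCNPC-P10. GRIN2B also rose, as given above, and so did CHRNA3 (log2 fold change 0.42, edgeR adjusted p = 9.61e-05). Of the 4 other genes with GGACAGC, GLRA2 (log2 fold change 3.17) and CHRNB1 (log2 fold change 0.55) rose, GABRG3 fell (log2 fold change -1.18, edgeR adjusted p = 1.93e-08) and was the one subunit called lower at this step, and GLRB was not called (log2 fold change 0.15, edgeR adjusted p = 0.233). The part of REST in these changes was not tested.

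From day 6 to day 30 most AMPA, NMDA, GABA-A and glycine receptor subunits rose and most nicotinic subunits fell. In hMN-D30 against hMN-D6, 23 of 34 were higher (67.6%, beside 32.9% of all genes) and 6 were lower (17.6%, beside 30.5%), with a median log2 fold change of 1.17 beside 0.023 over all genes. All 4 AMPA subunits, 2 of 5 kainate, 5 of 6 NMDA, 8 of 8 GABA-A and 3 of 4 glycine subunits were higher, against 1 of 7 nicotinic subunits, and 5 of the 6 lower calls were nicotinic. The call of GABRG1, which had at most 0.298 CPM in an hMN-D30 library, was lost without hMN-D6 library 2 (edgeR adjusted p = 0.0601). In all, 18 subunits were higher both in hMN-D6 than in hSCNPC-P10 and in hMN-D30 than in hMN-D6. These comparisons share the hMN-D6 libraries, and the share of all genes with both calls was not counted. Markers of other cells moved as well. Neural progenitor markers summed to 422 to 439 CPM in hMN-D30 and to 1420 to 1480 CPM in hMN-D6, with 6 of 7 lower. Oligodendrocyte lineage markers summed to 52.5 to 67.5 CPM in hMN-D30 and to 15.5 to 19.1 CPM in hMN-D6, with 4 of 5 tested higher and MOG at 0 in both groups. Astrocyte markers (4 of 6 higher, 1 lower) summed to 15.2 to 20.6 CPM in hMN-D30 and to 12.8 to 13.8 CPM in hMN-D6, and glutamate neuron markers (3 of 3 higher) to 10.7 to 11.2 CPM in hMN-D30 and to 1.88 to 2.1 CPM in hMN-D6. Of 8 neuron markers 4 were higher and 4 lower. Markers of GABA or glycine neurons (2 of 4 higher, 1 lower) summed to 43.7 to 48.9 CPM in hMN-D30 and to 34.3 to 38.5 CPM in hMN-D6. The part of these markers in the changes was not tested.

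The largest rises were among inhibitory receptor subunits that had been scarce in hMN-D6. GLRA3, a glycine receptor alpha subunit, had 10.2, 10.3 and 11.5 CPM in hMN-D30, against 0.443, 0.295 and 0.289 CPM in hMN-D6 (log2 fold change 4.97 ± 0.205 SE, edgeR adjusted p = 8.67e-27). GABRB1 had 7.84, 8.32 and 9.37 CPM in hMN-D30, against 0.387, 0.591 and 0.386 CPM in hMN-D6 (log2 fold change 4.19 ± 0.182 SE, edgeR adjusted p = 6.91e-26). GABRA2, an alpha subunit of synaptic receptors, had 51.8, 55.1 and 53.9 CPM in hMN-D30, against 2.99, 3.63 and 3.71 CPM in hMN-D6 (log2 fold change 3.96 ± 0.0932 SE, edgeR adjusted p = 4.19e-34). No hMN-D30 library overlapped the range of hMN-D6 for these 3 genes. GABRB1 and GABRA2 lie in 1 cluster of GABA-A genes on chromosome 4, with GABRG1 and GABRA4, which stayed below 1 CPM in all hMN-D30 libraries. GABRB2 rose as well (log2 fold change 2.19, edgeR adjusted p = 5.95e-15).

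Among NMDA subunits, GRIN2B had 174, 178 and 180 CPM in hMN-D30, against 17.1, 20.7 and 19.7 CPM in hMN-D6 (log2 fold change 3.21 ± 0.0813 SE, edgeR adjusted p = 9.09e-20). GRIN3A had 40.1, 35.2 and 36.6 CPM in hMN-D30, against 4.31, 4.22 and 4.15 CPM in hMN-D6 (log2 fold change 3.15 ± 0.0872 SE, edgeR adjusted p = 4.9e-34), its second rise in the course after that of NeuDet-D6. GRIN2C was lower (log2 fold change -0.76, edgeR adjusted p = 0.000831), at 2.19, 2.94 and 1.79 CPM in hMN-D30, against 3.65, 3.76 and 4.44 CPM in hMN-D6. Per length, GRIN2D remained the leading listed NMDA subunit at 50% ± 0.695 of the NMDA TPM in hMN-D6, 42.5% ± 0.972 in hMN-D24 and 37.8% ± 0.962 in hMN-D42. The exon length of each gene was taken over all its annotated transcripts, so the order of genes by TPM depends on that choice, while fold changes do not.

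AMPA subunits were all higher at day 30 than at day 6, GRIA2 had gained share, and GRIA1 led at day 42. The listed AMPA sum was 72.8 ± 4.18 TPM in hMN-D6, 220 ± 7.53 TPM in hMN-D24 and 174 ± 2.04 TPM in hMN-D42. GRIA2 had 161, 159.9 and 157 CPM in hMN-D30, against 49.2, 50.2 and 53.2 CPM in hMN-D6 (log2 fold change 1.66 ± 0.0529 SE, edgeR adjusted p = 1.13e-29), with libraries apart. Its share of the listed AMPA TPM was 0.063% in hESC, 7.51% in hSCNPC-P5, 15.7% in hSCNPC-P10, 21.8% in hMN-D6, 26.2% in hMN-D24 and 24.2% in hMN-D42. RNA levels do not show whether the transcript was edited.

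Most subunits were past their peak at day 42. In hMN-D42 against hMN-D30, 5 of 34 were higher (14.7%, beside 21.8% of all genes) and 19 were lower (55.9%, beside 19.9%), with a median log2 fold change of -0.278 beside -0.000491 over all genes. Of the 23 that had risen to day 30, 14 were lower at day 42, and these comparisons share the hMN-D30 libraries. The share of all genes with both calls was not counted here either. Within the hMN days the highest mean lay at day 24 for 10 subunits, at day 12 for 4 and at days 6, 18, 30 and 42 for 5 each. The days of the highest mean were not counted over all genes, so whether this spread is unusual was not tested.

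GRIA3 had 22.8, 22.4 and 23.4 CPM in hMN-D42, against 39.9, 38.7 and 39.1 CPM in hMN-D30 (log2 fold change -0.77 ± 0.0582 SE, edgeR adjusted p = 1.23e-15). GRIK3 (log2 fold change -0.74, edgeR adjusted p = 7.33e-11) and the NMDA subunits GRIN3A (log2 fold change -0.72, edgeR adjusted p = 6.19e-13), GRIN2B (log2 fold change -0.65, edgeR adjusted p = 4.45e-08), GRIN2D (log2 fold change -0.64, edgeR adjusted p = 7.17e-15) and GRIN1 (log2 fold change -0.54, edgeR adjusted p = 2.5e-13) fell by similar amounts, all with libraries apart. GRIA1 went slightly the other way, with 96.8, 98.1 and 100 CPM in hMN-D42, against 88.7, 87.7 and 91 CPM in hMN-D30 (log2 fold change 0.14 ± 0.0446 SE, edgeR adjusted p = 0.00714), a call lost when all 66 libraries entered 1 fit (adjusted p = 0.222). GABRA5 rose (log2 fold change 0.47, edgeR adjusted p = 5.02e-05), at 18.8, 16.8 and 17.9 CPM in hMN-D42, against 12.1, 13.8 and 12.8 CPM in hMN-D30. GRIN2C rose from a low level (log2 fold change 1.18, edgeR adjusted p = 1.95e-06), and the call of GABRG3 (log2 fold change 0.38, edgeR adjusted p = 0.0154) was lost without hMN-D30 library 1 (adjusted p = 0.0592) or 2 (adjusted p = 0.0789) and without hMN-D42 library 1 (adjusted p = 0.109). GABRG1, under 1 CPM throughout, was called higher, a call lost in 6 of 11 alternatives (adjusted p up to 0.246). The lower call of GABRA2 was lost in 6 of 13 alternatives (edgeR adjusted p up to 0.298), among them without hMN-D30 library 2 or 3 and without hMN-D42 library 1 or 2. That of GRIA4 was lost without hMN-D30 library 2 (edgeR adjusted p = 0.0705). Fitted together with all 66 libraries, 17 subunits were called in this comparison in place of 24.

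Most glial markers rose over the same 12 days. Oligodendrocyte lineage markers summed to 151 to 168 CPM in hMN-D42 and to 52.5 to 67.5 CPM in hMN-D30 (MOG, of mature oligodendrocytes, was at 0), and astrocyte markers to 61.2 to 64.8 CPM in hMN-D42 and to 15.2 to 20.6 CPM in hMN-D30. Of 5 oligodendrocyte lineage markers tested 4 were higher and 1 lower, and of 6 astrocyte markers 5 were higher. Motor neuron markers summed to 102 to 105 CPM in hMN-D42 and to 111 to 116 CPM in hMN-D30, with 3 of 7 higher and 2 lower. Of 8 neuron markers 6 were lower and none was higher (median log2 fold change -0.271), with sums of 3900 to 4100 CPM in hMN-D42 and 4480 to 4640 CPM in hMN-D30. Markers of GABA or glycine neurons (3 of 4 higher, 1 lower) summed to 54.7 to 56.6 CPM in hMN-D42 and to 43.7 to 48.9 CPM in hMN-D30. REST was higher in hMN-D42 than in hMN-D30 (log2 fold change 1.01, edgeR adjusted p = 2e-11). Their part in the falls of the subunits was not tested.

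Ratios of subunits of the same family were compared within libraries, where scaling cancels. The 6 libraries of hMN-D30 and hMN-D42 were set against the 6 of hMN-D6 and hMN-D12 for 18 pairs, and the 6 of hSCNPC-P30 and P40 against the 6 of hSCNPC-P5 and P10 for 14 pairs, with 0.5 added to each count. The exact two-sided permutation test over 924 regroupings can give no p below 0.00216, and p-values were adjusted over the 32 tests. Libraries of the same day or passage were regrouped as if they were separate units. These p-values therefore do not measure the spread between days or between passages. In the hMN cultures 15 of 18 ratios changed, 10 of them with libraries apart. Across the passages 10 of 14 changed, 6 of them with libraries apart. Ratios of other gene pairs were not taken, so whether these counts are unusual was not tested. Without the libraries of replicate number 1, 12 and 7 ratios passed, and without those of number 2 or 3 none did, where an exact permutation test of 4 against 4 libraries can give no p below 0.0286 before adjustment.

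The NMDA ratios moved towards GRIN2B. The log2 count ratio of GRIN2A to GRIN2B was -1.47 to -0.92 in the late and -0.14 to 0.61 in the early hMN libraries (difference -1.45, exact permutation test, adjusted p = 0.00433). By TPM the ratio was 2.42 in hMN-D6, 1.64 in hMN-D12, 0.622 in hMN-D30 and 0.856 in hMN-D42. GRIN2D to GRIN2B fell by 1.81 on the log2 scale (exact permutation test, adjusted p = 0.00433), and by TPM it was 2.55 in hMN-D42 and 10.5 in hMN-D6. GRIN3A to GRIN1 rose by 1.35 (exact permutation test, adjusted p = 0.00433). All 3 were apart between the early and late libraries. Across the passages GRIN2A to GRIN2B shifted in the same direction by more, with a difference of -6.13 (exact permutation test, adjusted p = 0.00433) and a TPM ratio of 0.00947 in hSCNPC-P40, where GRIN2A was close to 0 counts, and 2.42 in hSCNPC-P5. GRIN2D to GRIN2B differed by -2.81 between late and early passages (exact permutation test, adjusted p = 0.00433).

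**Figure D4:**
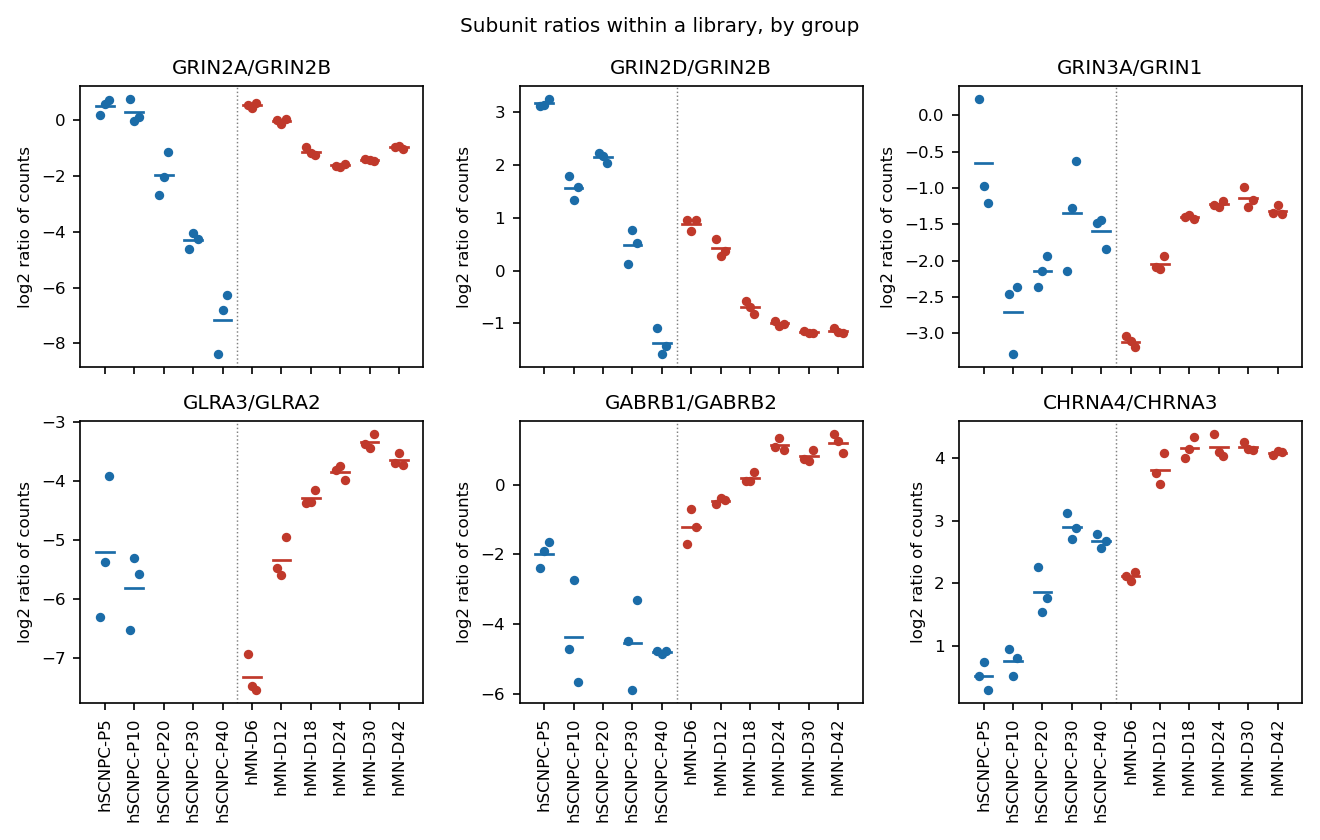
Log2 ratio of counts of 6 subunit pairs in the hSCNPC passages (blue) and the hMN days (red), with each library as a point, the group mean as a short line and groups of too few counts left blank. GRIN2A/GRIN2B falls along the passages and from hMN-D6 to hMN-D24, and GLRA3/GLRA2 climbs from hMN-D6 to hMN-D30.

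Inhibitory receptor ratios shifted as well. GLRA3 to GLRA2 was -3.74 to -3.21 in the late and -7.55 to -4.96 in the early hMN libraries on the log2 scale (difference 2.84, exact permutation test, adjusted p = 0.00433), although by TPM GLRA3 still stood at 0.0318 of GLRA2 in hMN-D42. GABRB1 to GABRB2 rose by 1.84 and GABRA3 to GABRA5 fell by 1.13 (exact permutation test, adjusted p = 0.00433 for each), with libraries apart. GABRA3 made 82.2% ± 1.10 of the listed GABA-A TPM in hMN-D6, 71.7% ± 0.757 in hMN-D24 and 57.4% ± 0.458 in hMN-D42. GABRG1 to GABRG3 and GABRA2 to GABRA5 did not pass (exact permutation test, adjusted p = 0.983 and 0.173), with differences of 0.024 and 0.76. The early days of GABRA2 to GABRA5 were unlike, with a mean log2 ratio of 0.006 in hMN-D6 and 1.96 in hMN-D12. It was 2.055 in hMN-D30 and 1.43 in hMN-D42, so the pooled test does not show that this ratio was steady.

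AMPA and kainate ratios changed too. GRIA4 to GRIA2 fell by 0.51 and GRIA3 to GRIA2 by 0.65 in late against early hMN libraries, with libraries apart (exact permutation test, adjusted p = 0.00433 for each), whereas GRIA1 to GRIA2 rose by 0.44 with overlapping libraries (exact permutation test, adjusted p = 0.0462). GRIK1 to GRIK2 fell by 1.07 and GRIK3 to GRIK2 by 0.79, with libraries apart (exact permutation test, adjusted p = 0.00433 for each). Between passages GRIA3 to GRIA2 differed by -1.75 and GRIK1 to GRIK2 by -1.14, also with libraries apart (exact permutation test, adjusted p = 0.00433 for each), while GRIA1 to GRIA2 did not pass (exact permutation test, adjusted p = 0.151). GRIK5 to GRIK2 fell by 0.52 in the hMN cultures (exact permutation test, adjusted p = 0.0208) and differed by -1.20 between passages (exact permutation test, adjusted p = 0.0077), with overlapping libraries both times.

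The nicotinic subunits did not move alike, as 3 neighbouring genes fell, CHRNA4 rose, and CHRNB2 fell less and stayed abundant. CHRNA5, CHRNA3 and CHRNB4 lie side by side on chromosome 15 (hg38, 78565520 to 78595269, 78593052 to 78621295 and 78624111 to 78727754) and encode the subunits of ganglionic receptors. CHRNA5, an accessory subunit, had 3.29, 3.02 and 2.51 CPM in hMN-D30, against 19.8, 21.2 and 19.4 CPM in hMN-D6 (log2 fold change -2.76 ± 0.113 SE, edgeR adjusted p = 6.19e-27). CHRNB4 had 3.1, 3.55 and 3.45 CPM in hMN-D30, against 8.74, 9.2 and 9.4 CPM in hMN-D6 (log2 fold change -1.43 ± 0.128 SE, edgeR adjusted p = 4.91e-14). CHRNA3 had 7.41, 8.12 and 7.67 CPM in hMN-D30, against 17.3, 20.2 and 18.9 CPM in hMN-D6 (log2 fold change -1.27 ± 0.0988 SE, edgeR adjusted p = 3.79e-16). All 3 genes of the cluster were lower with libraries apart, and most of the fall was present at day 12, at 7.86, 7.98 and 8.38 CPM for CHRNA5 and 2.25, 2.67 and 2.33 CPM for CHRNB4. Exons of other genes overlap 28.4% of the CHRNA5 exon length and 4.2% of that of CHRNA3, and reads of such stretches cannot be told apart where the counting is not stated to use strand.

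CHRNA4 rose over the same days, with 142, 143 and 135 CPM in hMN-D30, against 74.8, 83.2 and 86.1 CPM in hMN-D6 (log2 fold change 0.79 ± 0.0496 SE, edgeR adjusted p = 3.94e-19). CHRNB2, its partner in the main receptor of the brain, had 85.8, 83.9 and 82.2 CPM in hMN-D30, against 111, 119 and 126 CPM in hMN-D6 (log2 fold change -0.49 ± 0.0485 SE, edgeR adjusted p = 1.44e-12), still the leading listed nicotinic subunit at 44.7% ± 1.98 of the TPM in hMN-D42. CHRNA4 made 35.5% of the listed nicotinic TPM in hMN-D42 and 16.5% in hMN-D6, and CHRNA5 made 2.60% in hMN-D42 and 13.5% in hMN-D6. CHRNA4 to CHRNA3 rose by 1.17 on the log2 scale in late against early hMN libraries with overlap (exact permutation test, adjusted p = 0.0077), and by 2.15 between late and early passages with libraries apart (exact permutation test, adjusted p = 0.00433). CHRNB2 to CHRNB4 differed by 2.15 between passages (exact permutation test, adjusted p = 0.00433) and by -0.14 in the hMN cultures, which did not pass (exact permutation test, adjusted p = 0.757). The mean log2 ratio of CHRNB2 to CHRNB4 was 3.70 in hMN-D6, 5.48 in hMN-D12, 4.635 in hMN-D30 and 4.26 in hMN-D42. With such unlike early days, the pooled test does not show that this ratio was steady.

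CHRNA7, which forms receptors of 1 subunit type, stayed between 0.511 and 2.68 CPM in the hMN libraries. Its fall to 1.02, 0.53 and 0.511 CPM in hMN-D30, against 1.38, 2.03 and 1.69 CPM in hMN-D6 (log2 fold change -1.29 ± 0.471 SE, edgeR adjusted p = 0.0234) was lost in 5 of 13 alternatives (adjusted p up to 0.0936), among them those without hMN-D6 library 2 or 3 or hMN-D30 library 2 or 3. A near-identical partial copy of this gene exists, so its counts are uncertain. CHRNB1 was not called at day 30, with 11.7, 12.9 and 13.2 CPM in hMN-D30, against 12.1, 13.1 and 12.5 CPM in hMN-D6.

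**Figure D5:**
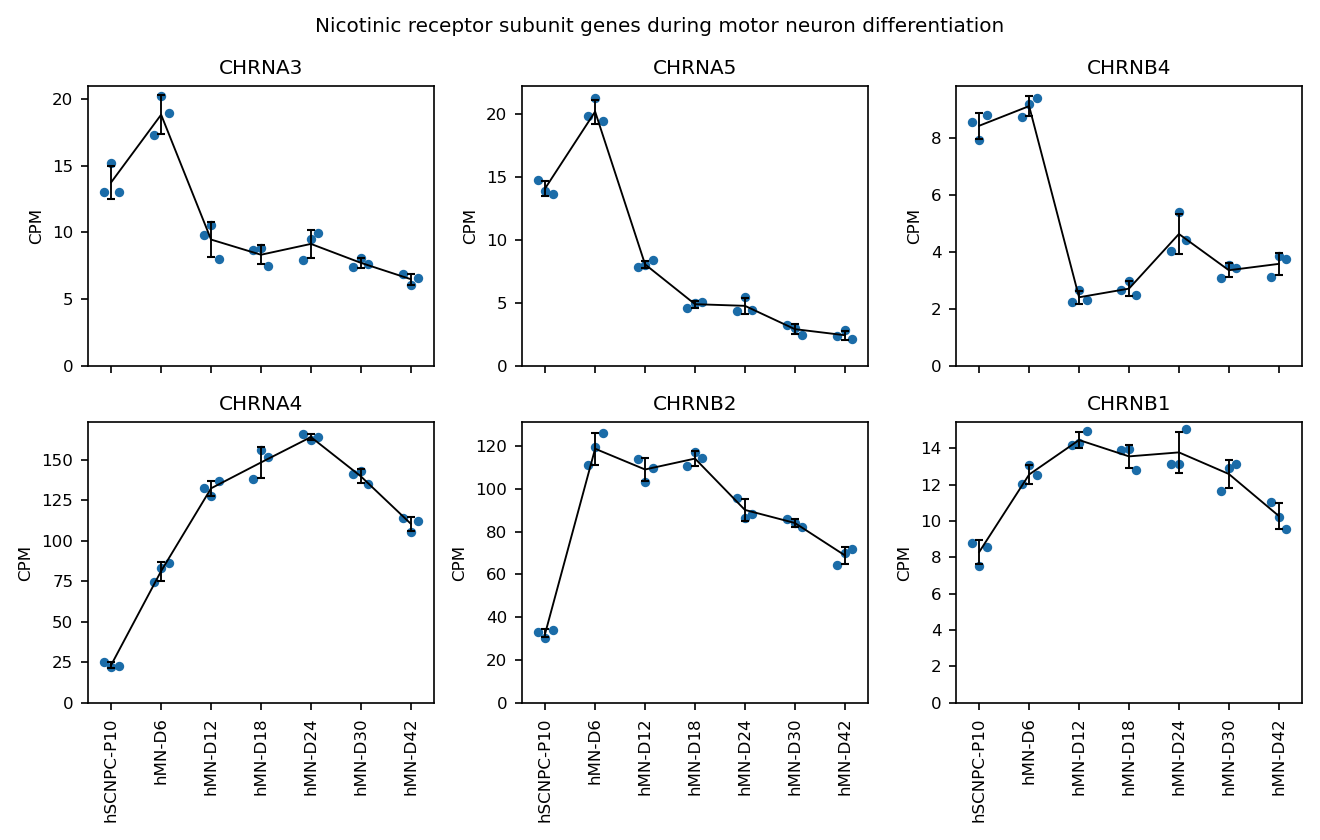
CPM (linear axes) of 6 nicotinic subunits in hSCNPC-P10 and the hMN days, with each library as a point and the group mean with SD as a black line with bars. CHRNA3, CHRNA5 and CHRNB4 are lower from hMN-D12 on than in hMN-D6, while CHRNA4 and CHRNB2 stay above 60 CPM in every hMN library.

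Genes that work with these receptors moved in part alongside them, counted over lists of known partners. Of 15 auxiliary subunits of glutamate receptors, 10 were higher and 3 lower in hMN-D6 than in hSCNPC-P10, 9 higher and 4 lower in hMN-D30 than in hMN-D6, and 3 higher and 11 lower in hMN-D42 than in hMN-D30. Of all genes tested, 38.5% were higher and 36.7% lower in the first of these comparisons, 32.9% higher and 30.5% lower in the next, and 21.8% higher and 19.9% lower in the last. CACNG2 (stargazin), which brings AMPA receptors to synapses, had the largest rise at day 6, at 2.03 ± 0.216 CPM in hMN-D6 and 0.0876 ± 0.0759 CPM in hSCNPC-P10 (SD, n = 3, log2 fold change 4.43), and GSG1L, an AMPA auxiliary subunit, the largest at day 30, at 7.21 ± 0.718 CPM in hMN-D30 and 0.468 ± 0.0837 CPM in hMN-D6 (log2 fold change 3.95). Of 13 tested, 2 were higher and 7 lower in hSCNPC-P40 than in hSCNPC-P5 (22.8% and 24.1% of all genes), led by SHISA6 (log2 fold change -5.04).

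Of 18 excitatory scaffold genes, 13 were higher and 5 lower in hMN-D6 than in hSCNPC-P10, 11 higher and 4 lower in hMN-D30 than in hMN-D6, and 2 higher and 9 lower in hMN-D42 than in hMN-D30, beside the same shares of all genes. GRIP2, which binds AMPA receptor tails, had 70.7 ± 5.59 CPM in hMN-D30 and 8.94 ± 1.18 CPM in hMN-D6 (SD, n = 3, log2 fold change 2.98). Among inhibitory synapse and nicotinic assembly genes, 6 of 10 tested were higher and 2 lower in hMN-D6 than in hSCNPC-P10 (38.5% and 36.7% of all genes), 7 higher and 3 lower in hMN-D30 than in hMN-D6 (32.9% and 30.5%), and 3 higher and 4 lower in hMN-D42 than in hMN-D30 (21.8% and 19.9%). LHFPL4, which holds GABA-A receptors at synapses, had 46.4 ± 1.75 CPM in hMN-D6 and 3.11 ± 0.398 CPM in hSCNPC-P10 (log2 fold change 3.85), and it rose again at day 30 (log2 fold change 1.62). The nicotinic chaperones RIC3 and TMEM35A, both needed for the assembly of CHRNA7 receptors, were higher in hMN-D6 than in hSCNPC-P10 (log2 fold change 1.63 and 1.93) and in hMN-D30 than in hMN-D6 (log2 fold change 1.21 and 0.95). LRP4, an agrin receptor of the neuromuscular junction, was the largest fall of that list in hMN-D6 (log2 fold change -3.55).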

How the data were processed

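Bulk RNA-seq of 66 libraries in 22 groups was analysed from 2 gene count tables, 1 with the 48 libraries of hESC to hSCNPC and 1 with the 18 hMN libraries. Per the labels and the study's methods, the deposited values are raw counts per gene, without normalization, which the authors made by trimming with fastp, alignment with HISAT2 2.1.0 (build hg38) and counting with featureCounts 1.5.3. The strand setting, the annotation release and a differential test are not given in the sources used here. Every column of the tables was used (0 left out).

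Symbols and exon lengths came from GENCODE release 44, which matched 60261 of 60603 identifiers. Levels are CPM with TMM factors over all 66 libraries. TPM left out the 0.564% of identifiers, with 0.106% of counts, that had no exon length. Comparisons used edgeR 4.0.16 in R 4.3.3 (glmQLFit, robust, glmQLFTest, filterByExpr, group as the only term), in 1 fit of the 48 libraries and a separate fit in which the 3 hSCNPC-P10 libraries joined the 18 of hMN, so that groups shared the estimate of the spread. P-values were Benjamini-Hochberg adjusted over all genes of a fit and called under 0.05. A median over the subunits was also taken with a group at 0 set to 3 counts. A ratio was tested where both genes together had at least 10 counts in each of the 12 libraries. Depth sets the precision of low subunits, and intervals and floors cover counting error only.

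All subunits are accounted for. Per comparison, values are given for up to 6 called subunits of largest fold change in each direction with at least 1 CPM in all 3 libraries of the higher group, and for ratio pairs. GRIA2 in hMN-D6, GRIN2D in hNMP-D1, the subunits at 0, those whose calls were lost and the sequences were chosen after their values were seen. The subunits, lists and tests were chosen with earlier results of these data known. The edgeR fit was tested on simulated counts. Alternatives were RLE scaling, DESeq2 1.42.0, other filters, other libraries in the fit, a replicate block, each library left out and other added counts. Python 3.11.15, pandas 2.3.3, numpy 2.4.6 and matplotlib 3.10.9 were used. Promoter windows came from RefSeq (GRCh38.p14), the assembly version of hg38.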

Additional observations from a re-analysis of the deposited data

How the results depend on the processing

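No value changed direction under any alternative. The counts of called subunits in the 7 comparisons, in the order of the course, were 24, 19, 27, 24, 26, 29 and 24, and stayed within 1.5 times of these. With 1 library left out they ranged over 22 to 25, 20 to 21, 27 to 27, 20 to 24, 25 to 28, 28 to 29 and 20 to 25, and under the other alternatives the lowest was 17 (hMN-D42 against hMN-D30, all 66 libraries in 1 fit). Of the refits of single called subunits or ratios, 96 of 1113 lost the call with a library or replicate number left out, 8 of 173 with all 66 libraries in 1 fit, 4 of 173 without a filter, 3 of 173 with DESeq2 and 0 of 173 with RLE scaling. The replicate numbers do not pair the libraries (correlations of deviations from -0.023 to 0.042), and with the replicate number as a block 24, 19, 27, 23, 26, 29 and 24 subunits were called. Every library correlated best with its own number only in hNMP-D4 against hESC. Of the subunit ratios, 15 in the hMN cultures and 10 across passages changed, and other gene pairs were not tested. The replicate block left 13 and 8, and leaving out a replicate number left 0 to 12 and 0 to 7, where 4 against 4 libraries can give no exact permutation p below 0.0286. Depth limits the subunits under 1 CPM, among them GABRG1, GABRA4 and GLRA1 in most groups.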
